A study of Mus musculus with 22 samples.

Results

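Orm2, Serpina3n and Hp are 3 genes whose secreted products are made by hepatocytes and belong to the acute phase proteins of mouse plasma. They were taken as a named set of 3 out of 8251 genes that the arrays measured with at least 1 probe set of a single gene symbol. Each was followed through the probe set with the highest mean log2 level over the 22 arrays, and each had only 1 probe set with a single symbol. The members were chosen by their measured log2 levels over the 11 conditions, for a slow rise and for persistence in both genotypes, so the time course after interferon-gamma is given as a description and carries no test here. The differences between genotypes and between PBS-injected and untreated mice were not themselves criteria of that choice and were tested. The levels they are made of were among those 11 conditions, so these tests are not wholly separate from the choice.

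The liver samples came from SOCS1-/-IFNg-/- mice and from IFNg-/- mice, so every animal in the study lacked its own interferon-gamma, and the 2 genotypes differ in Socs1, the gene of a suppressor of cytokine signalling. Mice of each genotype received 4 µg of recombinant interferon-gamma in 100 µl by intraperitoneal injection, and livers were collected at 0.5, 1, 2, 4, 12, 16, 24 and 48 h. Control livers came from mice injected with 100 µl of PBS and taken at 4 and 12 h, and from untreated mice. There was 1 Affymetrix array for each genotype and condition, which makes 11 arrays per genotype. The labels used here give no age, sex or strain, and do not say whether a sample was 1 animal or a pool. No PBS sample stands at 0.5, 1, 2, 16, 24 or 48 h, so at those times the effect of the cytokine and that of the injection cannot be told apart.

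The acute phase response is a change in the plasma proteins that the liver secretes during infection, injury or inflammation. Interleukin-6 family cytokines acting through STAT3, interleukin-1 acting through NF-kB and C/EBP factors, and glucocorticoids are its best known inducers in hepatocytes. Orm2 encodes orosomucoid, also called alpha-1-acid glycoprotein, which carries lipophilic and basic small molecules in plasma and damps inflammation. Serpina3n encodes a secreted serine protease inhibitor related to human alpha-1-antichymotrypsin, which in mice inhibits granzyme B and leukocyte elastase. Hp encodes haptoglobin, which binds haemoglobin released from red blood cells so that macrophages can clear it.

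The sequences just upstream of the genes are shown because the inducers named above act through short DNA elements close to such start sites. The RefSeq promoter table of assembly GRCm38.p6 held windows for 2 of the 3 members, Orm2 and Serpina3n, and for Orm3, the neighbour of Orm2 on chromosome 4. They are printed 5′ to 3′ on the plus strand, which is the strand of all 3 genes, and end before the first annotated base of the gene. Capitals mark matches to motifs searched on both strands. The Orm2 window is chr4:63362199-63362448, that of Orm3 is chr4:63355908-63356068, and that of Serpina3n is chr12:104406458-104406645.
Orm2: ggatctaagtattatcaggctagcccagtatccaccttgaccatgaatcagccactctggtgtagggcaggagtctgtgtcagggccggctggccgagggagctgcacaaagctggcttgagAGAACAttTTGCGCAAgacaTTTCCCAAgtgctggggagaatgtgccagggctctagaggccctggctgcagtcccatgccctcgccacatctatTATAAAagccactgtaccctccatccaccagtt
Orm3: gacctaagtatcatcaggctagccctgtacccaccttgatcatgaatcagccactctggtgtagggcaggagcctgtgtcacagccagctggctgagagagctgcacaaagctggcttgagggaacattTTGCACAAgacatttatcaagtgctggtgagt
Serpina3n: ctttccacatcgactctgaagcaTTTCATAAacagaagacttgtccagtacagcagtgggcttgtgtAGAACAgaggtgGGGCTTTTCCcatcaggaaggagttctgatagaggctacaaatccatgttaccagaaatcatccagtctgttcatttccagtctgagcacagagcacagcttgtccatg
In the Orm2 window the C/EBP-type motif TTNNGNAA matched at bases -120 to -113 and at -108 to -101, counted back from the first annotated base of the gene, and AGAACA, 1 arm of the palindromic glucocorticoid receptor element, matched at -128 to -123. A TATA box, TATAAA, lay at -33 to -28. The Serpina3n window held a C/EBP-type match at -165 to -158, AGAACA at -121 to -116 and an NF-kB-type match, GGG and TTCC with 3 bases between them, at -109 to -100, with no overlap between them. In the Orm3 window the match was a C/EBP-type one at -32 to -25. The table's own start site lies at the first annotated base of Orm2, 62 bases downstream of that base in Serpina3n and 89 bases downstream in Orm3, and the bases between were not searched. Neither the STAT-type motif TTCNNNGAA nor the core CTGGGA of the interleukin-6 element matched the letters of these windows. Of 32851 mouse promoters, as the 250 bases before the table's start sites, 36.8% held TTNNGNAA, 16.1% held AGAACA, 12.4% held TATAAA, 4.65% held the NF-kB-type motif, 7.02% held TTCNNNGAA and 27.0% held CTGGGA. Over the 250 bases before the table's start sites, Orm2 and Orm3 were identical at 218 of 245 aligned bases (89.0%).

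Values are log2 expression as deposited, a difference of 1 is a change by a factor of 2, and errors are the standard errors (SE) of the model fit. The genotype labels were checked first. Socs1 lay between 6.57 and 7.02 on the SOCS1-/-IFNg-/- arrays, against 6.68 to 9.21 on the IFNg-/- arrays, ranges that overlap. The IFNg-/- arrays at 1 h (7.37) and 2 h (9.21) stood above that overlap. At 24 and 48 h Socs1 was higher on the SOCS1-/-IFNg-/- array (7.02 against 6.70 and 6.72 against 6.68). The check therefore does not tell the labels apart at these times. Ifng lay between 2.18 and 2.61 on all arrays and cannot separate 2 genotypes that both lack it. Array medians ran from 5.64 to 5.71. On 1 array, SOCS1-/-IFNg-/- at 4 h, the median correlation with the other arrays was the lowest, at 0.972. The livers expressed hepatocyte genes throughout: the summed linear level of 16 measured hepatocyte markers was 56203 to 60791 at 12 to 48 h and 60816 to 64836 in controls of SOCS1-/-IFNg-/- mice, and 59195 to 64117 against 61897 to 65920 in IFNg-/- mice. In such bulk samples, fewer cells of a type and less RNA per cell cannot be told apart.

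All 3 members were abundant. The mean log2 level over the arrays was 12.59 for Hp, 11.03 for Serpina3n and 8.52 for Orm2, and 99.9%, 99.2% and 91.1% of the measured genes lay lower. Probe sets differ in brightness for the same amount of RNA, so these levels place each gene on the array and do not rank the members against each other. The spans ran the other way: the log2 range over the arrays was 3.97 for Orm2, 2.25 for Serpina3n and 1.10 for Hp. A smaller range was seen in 99.6%, 98.6% and 92.5% of genes.

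Of the 3 genes, Orm2 had the widest response and was the last to stand above the controls in both genotypes. In SOCS1-/-IFNg-/- livers it was 7.66 untreated, 8.28 at 4 h and 8.72 at 12 h after PBS, then 7.31, 7.37, 7.65, 8.27, 10.87, 10.79, 10.11 and 8.68 at 0.5, 1, 2, 4, 12, 16, 24 and 48 h after interferon-gamma. In IFNg-/- livers it was 7.13 untreated, 7.92 at 4 h and 8.01 at 12 h after PBS, then 7.02, 6.90, 7.68, 9.82, 9.51, 8.75, 9.82 and 9.12 at the same interferon times. The 12, 16 and 24 h arrays lay above all 6 control arrays in both genotypes, although the IFNg-/- liver at 16 h was barely above the highest control, and the 0.5 and 1 h arrays were the lowest of each genotype. As means of both genotypes against the 6 controls, the log2 differences were -0.79, -0.82 and -0.29 at 0.5, 1 and 2 h, and 1.09, 2.24, 1.82, 2.01 and 0.94 at 4, 12, 16, 24 and 48 h (SE 0.44 each). The largest of these is 4.71-fold, at 12 h. The 4 h mean hides opposite arrays, since Orm2 was at 8.27 in the SOCS1-/-IFNg-/- liver, inside its genotype's control range, and at 9.82 in the IFNg-/- liver, above it.

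Serpina3n rose early and then held. In SOCS1-/-IFNg-/- livers it was 10.08 untreated, 10.81 at 4 h and 10.54 at 12 h after PBS, then 10.57, 10.95, 12.09, 12.06, 11.95, 12.28, 12.06 and 10.26 at 0.5, 1, 2, 4, 12, 16, 24 and 48 h after interferon-gamma. In IFNg-/- livers it was 10.08 untreated, 10.40 at 4 h and 10.08 at 12 h after PBS, then 10.03, 10.99, 11.54, 11.47, 11.34, 11.16, 11.62 and 10.20 at the same interferon times. From 1 to 24 h both arrays of every time lay above all 6 controls, and at 48 h both were back among them. The log2 difference from controls was -0.03 at 0.5 h and 0.64 at 1 h, stayed between 1.32 and 1.51 from 2 to 24 h, and was -0.10 at 48 h (SE 0.17 each). The 24 h difference is 2.85-fold. The 2 h level had already reached 98.0% of the highest difference, which goes against the name of a late gene for Serpina3n.

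Hp changed by the least on the log2 scale. In SOCS1-/-IFNg-/- livers it was 12.41 untreated, 12.42 at 4 h and 12.51 at 12 h after PBS, then 12.51, 12.09, 12.50, 12.79, 13.12, 13.04, 13.14 and 12.50 at 0.5, 1, 2, 4, 12, 16, 24 and 48 h after interferon-gamma. In IFNg-/- livers it was 12.35 untreated, 12.11 at 4 h and 12.34 at 12 h after PBS, then 12.36, 12.04, 12.51, 12.85, 12.84, 12.87, 13.07 and 12.54 at the same interferon times. The 1 h livers were the lowest of each genotype, and the 4 to 24 h livers were all above the 6 controls. The log2 difference from controls was 0.08, -0.30 and 0.15 at 0.5, 1 and 2 h, then 0.47, 0.62, 0.59, 0.74 and 0.16 at 4, 12, 16, 24 and 48 h (SE 0.08 each). The 24 h difference is 1.68-fold. Hp sits close to the top of the scale, whose highest value on any array was 13.5, and the effect of signal saturation on its fold was not tested.

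**Figure D1:**
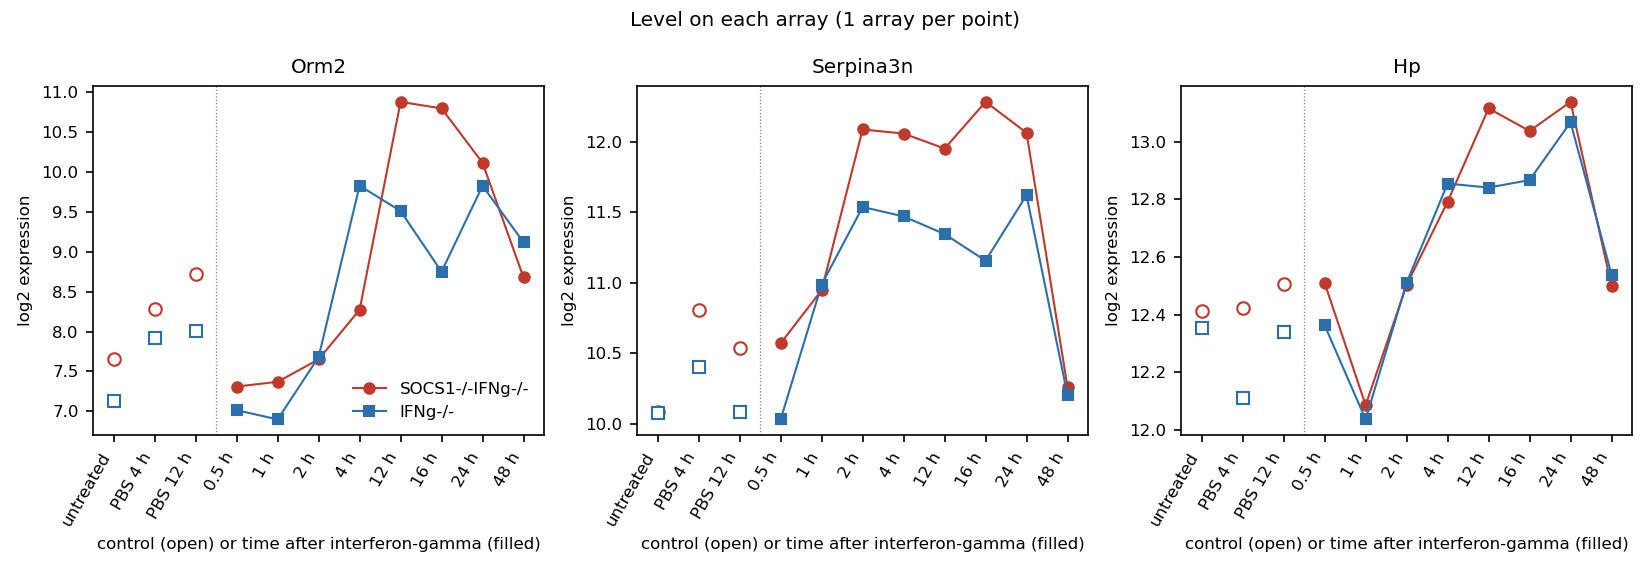
Log2 level of Orm2, Serpina3n and Hp (vertical axes) in the 11 conditions (horizontal axes, equally spaced), with 1 point per array and the genotype by colour and marker. Serpina3n stands above its controls by 1 h, Hp by 4 h and Orm2 in both genotypes by 12 h. The untreated Serpina3n points coincide at 10.08.

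Set side by side, the 3 genes differed in onset and in what remained at 48 h. The first time at which both arrays lay above all 6 controls was 1 h for Serpina3n, 4 h for Hp and 12 h for Orm2. That pattern was met by 3.61%, 5.44% and 6.68% of all genes at these times, and the same share was 3.94%, 5.9%, 4.67%, 6.1% and 5.13% at 0.5, 2, 16, 24 and 48 h. All 3 genes met it at 12, 16 and 24 h, and none at 48 h. At 48 h, as means of both genotypes, Orm2 kept 42.1% of its highest log2 difference and Hp kept 21.7%, while Serpina3n was at -6.5%. The Orm2 mean joins unlike arrays. In the SOCS1-/-IFNg-/- liver Orm2 was 0.46 above its genotype's control mean at 48 h, against 2.65 at 12 h, and lay below PBS 12 h (8.68 against 8.72). In the IFNg-/- liver it was 1.43 above at 48 h, against 2.14 at 4 h, and lay above all controls of that genotype. The members were chosen for such time courses, so nothing is read from these counts.

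Not all neighbouring conditions could be ordered. For Orm2 the order by mean was 12, 24, 16, 4 and 48 h, PBS 12 h, PBS 4 h, 2 h, untreated, 0.5 h and 1 h, and the arrays of neighbouring conditions overlapped at every step but that between PBS 4 h and 2 h. For Serpina3n the 24, 2, 4, 16 and 12 h livers overlapped their neighbours and stood clear of the 1 h livers, which stood clear of PBS 4 h, PBS 12 h, 0.5 h and 48 h. For Hp the order by mean was 24, 12, 16 and 4 h. The 24 and 16 h livers stood clear of the 4 h livers, while the IFNg-/- liver at 12 h lay just below that at 4 h, and these 4 times stood clear of the remaining conditions, with 1 h alone at the low end.

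PBS livers allow a time-matched comparison at 4 and 12 h. At 4 h the log2 difference between interferon and PBS livers was 0.95 ± 0.53 for Orm2, 1.16 ± 0.20 for Serpina3n and 0.56 ± 0.09 for Hp (SE, 2 arrays against 2). At 12 h it was 1.83 for Orm2, 1.34 for Serpina3n and 0.55 for Hp, with the same errors. The Orm2 difference had the widest error at both times.

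The injection itself was examined in the controls, a comparison that was not a criterion of the choice of members, although the control levels were among the conditions used for it. PBS livers differed from untreated livers by 0.84 ± 0.46 for Orm2 (95% interval -0.15 to 1.83), by 0.38 ± 0.18 for Serpina3n (0.00 to 0.75) and by -0.04 ± 0.08 for Hp (-0.21 to 0.14), over 4 PBS and 2 untreated arrays. Adjusted p-values from limma over all genes were 0.505, 0.423 and 0.886, so none of the 3 passed the threshold of 0.05, which 0.0242% of genes passed. Serpina3n had an unadjusted limma p of 0.0479. Orm2 was higher in all 4 PBS livers than in the untreated liver of the same genotype, and so was Serpina3n, although by a margin close to 0 in the IFNg-/- liver at 12 h. The 3′ minus 5′ log2 signal of Actb, a sign of RNA quality, moved with this comparison: it was 0.66 to 0.83 in PBS livers, against 1.31 and 1.32 in untreated livers, and its part in the differences was not tested.

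Across the 22 arrays the members moved together to unequal degrees. Pearson's r was 0.866 between Orm2 and Hp (Spearman's rho 0.834), 0.680 between Serpina3n and Hp (rho 0.667) and 0.579 between Orm2 and Serpina3n (rho 0.520). Within SOCS1-/-IFNg-/- livers r was 0.878, 0.704 and 0.571 in that order, and within IFNg-/- livers 0.850, 0.639 and 0.557. These are descriptions over arrays that share a time course, and the members were chosen for it.

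The genes whose levels ran most like each member, among 780 genes with a log2 range of at least 1, included acute phase genes and interferon-induced genes. For Orm2 they were Saa3 (r = 0.948), an acute phase serum amyloid, Tmem176a (0.908), Lsr (0.904), a lipoprotein receptor, Lcn2 (0.885), a siderophore-binding protein, Il18bp (0.883), the interleukin-18 binding protein, and Hpx (0.881), the haem carrier hemopexin. For Hp they were Lcn2 (0.930), Ly6e (0.888), Lsr (0.887), Orm2 (0.866), Saa3 (0.863) and Itih4 (0.855), a plasma protein of the inter-alpha-trypsin inhibitor family. For Serpina3n they were Cxcl9 (0.860), an interferon-induced chemokine, Saa2 (0.851), Lcn2 (0.842), Irf7 (0.835), an interferon regulatory factor, Gbp2 (0.828), an interferon-induced GTPase, and Mt1 (0.826), a metallothionein. Lcn2 was the gene common to all 3 lists. With Spearman's rho in place of r, 4 of the 6 neighbours were kept for Orm2, 2 for Serpina3n and 4 for Hp.

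The genotypes were compared in the pairs of livers that share treatment and time. Averaged over controls, early times (0.5 to 4 h) and late times (12 to 48 h), SOCS1-/-IFNg-/- minus IFNg-/- was 0.42 ± 0.09 for Serpina3n (95% interval 0.23 to 0.61), 0.38 ± 0.21 for Orm2 (-0.08 to 0.84) and 0.11 ± 0.04 for Hp (0.02 to 0.20), from 11 pairs. The limma p adjusted over all genes was 0.0756 for Serpina3n, 0.708 for Orm2 and 0.435 for Hp, so none of the 3 was called, in a comparison that called 0.218% of genes. The unadjusted limma p was 0.000367, 0.0959 and 0.0162 in the same order. Serpina3n was higher in SOCS1-/-IFNg-/- livers in 10 of 11 pairs, a count that 1.1% of genes reached, and Orm2 and Hp were higher in 8 of 11, which 11.8% of genes reached. Without the 48 h pair the Serpina3n difference was 0.47 with an adjusted p of 0.0320, on the other side of the threshold.

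By pair, the Serpina3n difference was 0.00 untreated, 0.41 and 0.45 at 4 and 12 h after PBS, and 0.54, -0.04, 0.55, 0.59, 0.61, 1.12, 0.44 and 0.06 from 0.5 to 48 h after interferon-gamma. It was thus present in both PBS pairs, small in the untreated, 1 h and 48 h pairs, and largest at 16 h. The Orm2 differences were 0.53, 0.36 and 0.71 in the controls in the same order, and 0.30, 0.47, -0.03, -1.55, 1.37, 2.04, 0.29 and -0.44 from 0.5 to 48 h. Orm2 was therefore lower in the SOCS1-/-IFNg-/- liver at 4 h and higher at 12 and 16 h, and a smaller pair difference in size was seen in 99.3%, 99.7% and 99.9% of genes at these times. The Hp differences ran from -0.06 at 4 h to 0.31 at PBS 4 h, and the 2, 4 and 48 h pairs were those below 0. The 4 h pair holds the SOCS1-/-IFNg-/- array with the lowest correlation to the others, whose 3′ minus 5′ signal of Actb was 0.33, and the part of that array in the 4 h values was not tested. The SOCS1-/-IFNg-/- array at 12 h had the highest 3′ minus 5′ signal of Gapdh of the 22 arrays, 1.16 against 0.58 in its IFNg-/- pair, and its part in the 12 h values was not tested either.

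**Figure D2:**
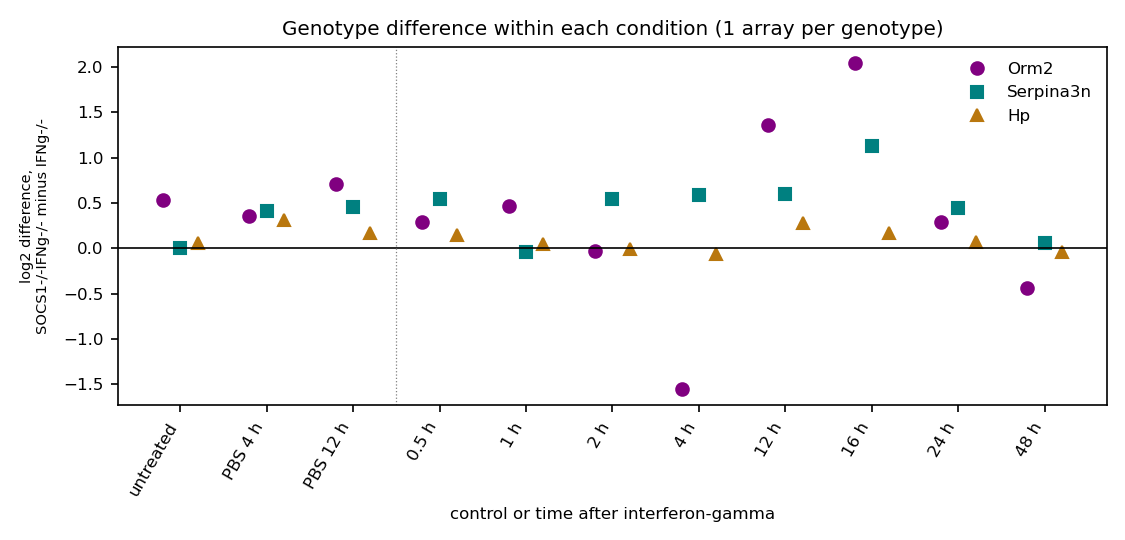
Log2 difference SOCS1-/-IFNg-/- minus IFNg-/- (vertical axis) for each of the 11 pairs of livers (horizontal axis), with Orm2, Serpina3n and Hp told apart by colour and marker. Serpina3n lies above 0 in 10 of 11 pairs, while Orm2 ranges from -1.55 at 4 h to 2.04 at 16 h.

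No member was called within a phase. At late times the genotype difference was 0.81 ± 0.35 for Orm2 (adjusted p = 0.291, limma, higher in 3 of 4 pairs), 0.56 ± 0.14 for Serpina3n (0.0814, 4 of 4) and 0.12 ± 0.07 for Hp (0.410, 3 of 4), where 0.836% of genes were called. Leaving out the 16 h pair gave a late Orm2 value of 0.40, and leaving out the 48 h pair gave 1.23. At early times it was -0.20 ± 0.35, 0.41 ± 0.14 and 0.03 ± 0.07 in that order, where 0.0242% of genes were called and none of the 3. The early Orm2 value takes its sign from the 4 h pair, at -1.55, as the other pairs were 0.30, 0.47 and -0.03. The early Hp pairs also lay on both sides of 0, from -0.06 to 0.15. In the controls the genotype difference was 0.53 ± 0.40, 0.29 ± 0.17 and 0.18 ± 0.08. There SOCS1-/-IFNg-/- was higher in 3 of 3 pairs for each gene, and 0.0121% of genes were called and none of the 3. The difference between the late and the control genotype difference, which asks whether interferon-gamma changed it, was 0.28 ± 0.53 for Orm2 (95% interval -0.87 to 1.43), 0.27 ± 0.22 for Serpina3n (-0.21 to 0.75) and -0.06 ± 0.10 for Hp (-0.28 to 0.16). The limma adjusted p-values were 0.867, 0.681 and 0.845, and 0 of all genes were called in this comparison, with 938 at an unadjusted p under 0.05 and none of the 3 members among them. The intervals leave room for a difference of either sign, so equal responses are not shown.

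Orosomucoid genes lie side by side and resemble each other, so the other Orm probe sets were read for the same pattern. A probe set shared by Orm2 and Orm1, which encodes the other main orosomucoid, ran between 11.65 and 13.05 and followed the Orm2 probe set with r = 0.970 (rho 0.950) over the 22 arrays. Its differences from controls were 0.36, 0.68, 0.69, 0.59 and 0.27 at 4, 12, 16, 24 and 48 h, smaller than those of the Orm2 probe set. Its genotype differences were -0.28, 0.45 and 0.62 at 4, 12 and 16 h, with the same signs as those of Orm2. Because this probe set can report either gene, it is not separate evidence for Orm2.

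In the test over all genes Orm1 rose by 0.60 ± 0.12 at 4 h (adjusted p = 0.0112, limma), by 0.90 ± 0.12 at 12 h (0.00132) and by 0.73 at 16 h (0.0119), where 3.14%, 1.31% and 0.388% of all genes were called higher. The calls at 4 and 16 h were lost when both untreated arrays were left out. Orm1 was at 10.06 and 10.02 in untreated livers and at 10.59 to 11.03 in PBS livers. Over time-matched PBS at 4 h it differed by 0.32 ± 0.15 (adjusted p = 0.430, limma) and was not called. Its genotype differences at 4, 12 and 16 h were 0.21, 0.10 and 0.13, and its r with Orm2 was 0.770. Orm3, which lies next to Orm2, stayed between 6.61 and 7.34 with a difference of 0.18 ± 0.14 at 12 h that was not called, and its r with Orm2 was 0.403. Hybridization between these similar transcripts was not tested.

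**Figure D3:**
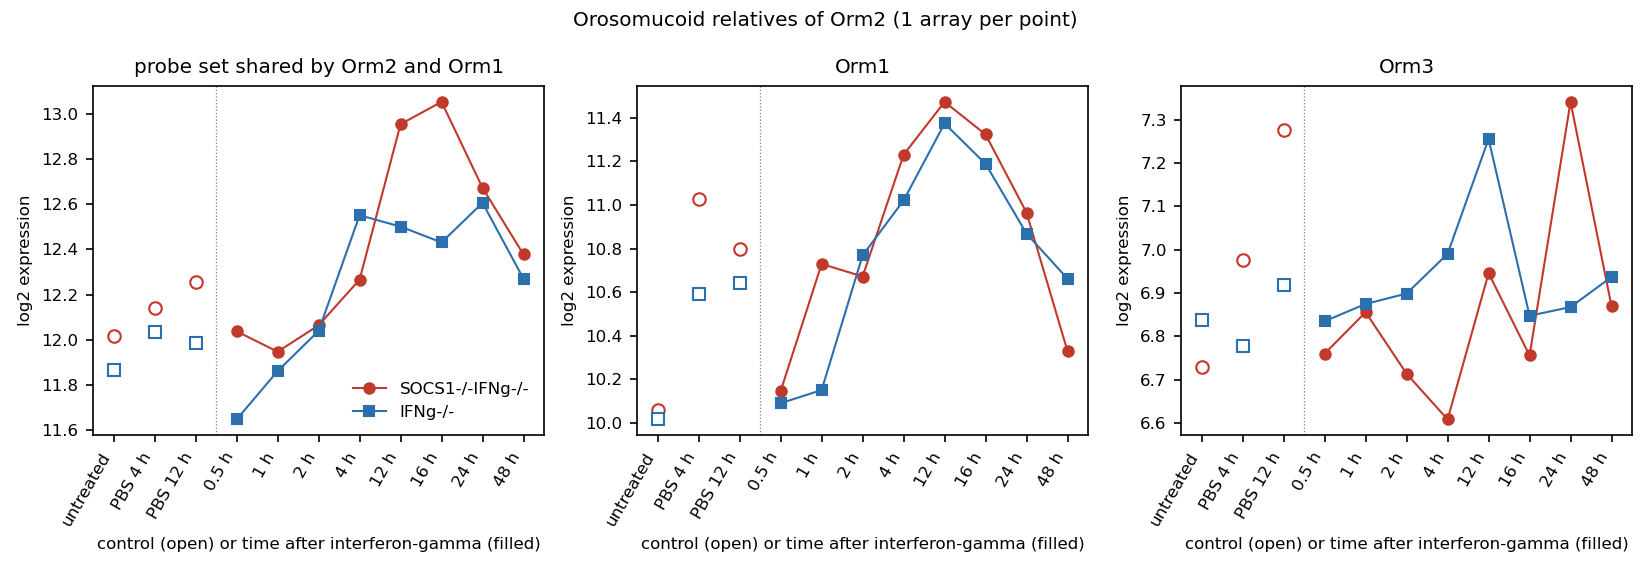
Log2 level (vertical axes, each with its own span) of the probe set shared by Orm2 and Orm1, of Orm1 and of Orm3 in the 11 conditions (horizontal axes), 1 point per array, genotype by colour and marker, controls open. The shared probe set runs between 11.65 and 13.05 and the genotypes part at 12 and 16 h, Orm1 peaks at 12 h in both genotypes, and Orm3 stays between 6.61 and 7.34.

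Of 21 family members and partners listed, 10 were measured, Serpina3n itself included, and Orm1, Hpx and Hmox1 were called at some time. Hpx, whose product binds haem as haptoglobin binds haemoglobin, rose by 0.44 ± 0.09 at 12 h (adjusted p = 0.0161, limma) and by 0.48 at 16 h, calls that were lost without both untreated arrays. Hmox1, the haem-degrading enzyme, rose by 0.41 at 2 h and 0.37 at 4 h, and these calls were lost in 6 and 2 of 10 fits that each left out a pair, where 1.24% and 3.14% of all genes were called higher. Gzmb, Ctsg, Elane and Cma1, which encode leukocyte proteases, and Lrp1, a clearance receptor of the liver, were not called at any time from 0.5 to 48 h.

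The members were set within a list of 50 positive acute phase genes, 41 of which were measured and 38 of which are not members. This list, like the others, was chosen with results of these data known. Of the 38 other genes, none was called at 0.5 or 1 h, where 2 and 3 were higher at an unadjusted limma p under 0.05. Such a p was reached by 478 and 370 of all 8251 genes at 0.5 and 1 h, in either direction. Calls of higher genes then numbered 4, 16, 12, 10 and 4 at 2, 4, 12, 16 and 24 h. Over all genes, 1.24%, 3.14%, 1.31%, 0.388% and 0.158% were called higher at these times. At 48 h none of the 38 was called and 2 were higher at an unadjusted p under 0.05, while 0.0121% of all genes were called. That unadjusted p was reached at 48 h by 552 of 8251 genes in either direction. The median log2 difference of the 38 was 0.18, 0.29, 0.34, 0.23, 0.12 and 0.02 at 2, 4, 12, 16, 24 and 48 h, where the medians over all genes lay between -0.03 and 0.01.

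The largest responses of the list belonged to genes with different courses. At 12 h Lcn2 rose by 3.97 ± 0.41, Saa2 by 3.16 ± 0.42 and Saa3 by 2.70 ± 0.51 (adjusted p = 0.000145, 0.00105 and 0.0128, limma), next to which stands the Orm2 difference of 2.24. Serpina10, a protease inhibitor of the clotting system, rose by 1.18, Apcs, serum amyloid P, by 1.18, and Lbp, which binds bacterial lipopolysaccharide, by 1.15. Hamp, the iron hormone hepcidin, was the gene of the list that fell at 12 h, by 2.37 ± 0.44 (adjusted p = 0.0115), where 0.109% of all genes were called lower. The Saa3 and Apcs calls at 12 h were lost without both untreated arrays. The fibrinogen genes Fga, Fgb and Fgg had 12 h differences of 0.13, 0.26 and 0.25 that were not called.

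Of the genes on the list with a largest difference of at least 1, 11 in number, the metallothioneins Mt1 and Mt2 and the interleukin-1 receptor antagonist Il1rn were highest at 4 h. Orm2, Serpina10 and Lbp were highest at 12 h, Saa3 and Apcs at 16 h, and Lcn2, Saa2 and Serpina3n at 24 h. Saa3 and Orm2 were the 2 of these genes for which the arrays of both genotypes first stood clear of the controls at 12 h. For Orm2 the IFNg-/- array did so at 4 h already, at 9.82. As means of both genotypes, Saa3 kept 54.2% and Orm2 42.1% of their highest difference at 48 h, where the 2 Orm2 arrays were unlike. Serpina3n was the earliest of the 11 to stand clear, at 1 h, ahead of Mt1, Mt2, Saa2, Il1rn and Serpina10 at 2 h. Lcn2 had lost nearly all of its rise at 48 h, with 6.54% of it kept.

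**Figure D4:**
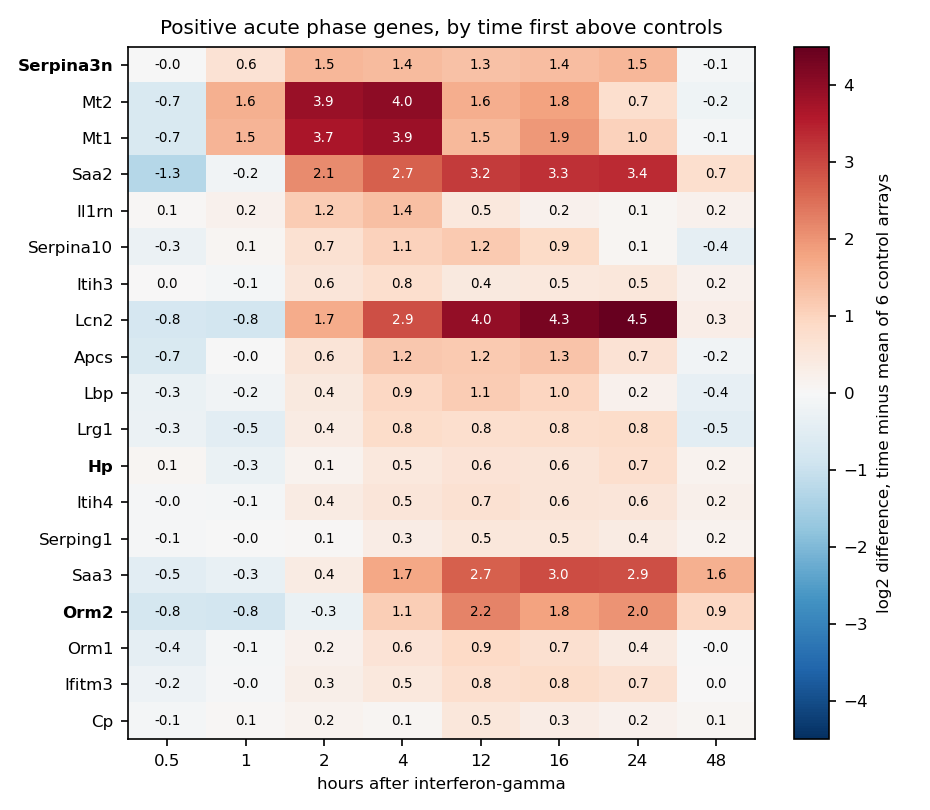
Log2 difference from the 6 control arrays (colour scale), as the mean of both genotypes, for 19 genes of the positive acute phase list (rows) at the 8 interferon times (columns). Rows run from the earliest to the latest time at which both arrays stood above all controls, members are in bold, and each gene shown had a largest difference of at least 0.5.

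Against time-matched PBS fewer genes of the list were called. At 4 h 6 of the 38 were higher with a median of 0.18, where 0.994% of all genes were called higher. Of these calls, Il1rn, Lbp and Lcn2 were lost in 0 of 9 leave-one-pair-out fits, Mt2 and Serpina10 in 6 of 9 and Cd14 in 7 of 9. At 12 h 3 of the 38, Lcn2, Saa2 and Lbp, were higher with a median of 0.27, where 0.109% of all genes were called. The Saa2 call was lost in 5 of 9 such fits and those of Lcn2 and Lbp in 0 of 9. PBS over untreated gave 0 calls among the 38 and a median of 0.19, where the median over all genes was -0.03. Of the 38, 13 were higher at an unadjusted limma p under 0.05, which 966 of 8251 genes reached in either direction. Orm2 and Serpina3n, with 0.84 and 0.38 in this comparison, lay above the median of the 38 and Hp below it.

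Calls among cytokines, receptors and transcription factors known to drive acute phase genes came at 1 to 4 h. Of 27 measured genes of this kind, calls of higher genes numbered 1, 3 and 10 at 1, 2 and 4 h and 0 from 12 to 48 h. At 12, 16, 24 and 48 h, 5, 1, 0 and 1 were higher at an unadjusted limma p under 0.05. Such a p, in either direction, was reached by 1097, 697, 815 and 552 of 8251 genes at these times. Over all genes 0.158%, 1.24% and 3.14% were called higher at 1, 2 and 4 h. At 12, 16, 24 and 48 h these shares were 1.31%, 0.388%, 0.158% and 0.0121%. With shares that low, the absence of calls among 27 genes at late times says nothing particular to them. Il1b, which encodes interleukin-1 beta, rose by 1.21 ± 0.14 at 1 h (adjusted p = 0.00207). At 2 h Cebpd, a C/EBP transcription factor, rose by 1.64 ± 0.35 (0.0259), Socs3, a target and inhibitor of STAT3 signalling, by 1.58 ± 0.18 (0.000202), and Osmr, the oncostatin M receptor, by 1.40 ± 0.21 (0.00209). The Cebpd call was lost when either PBS pair was left out.

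At 4 h Il1r1, the interleukin-1 receptor, rose by 1.71 ± 0.22, Osmr by 1.26, Il6st, the shared receptor chain of the interleukin-6 family, by 0.90, Tnfrsf1a by 0.78 and Stat3 by 0.68. Over PBS at 4 h, 5 of the 27 stayed called, which were Osmr, Socs3, Il6st, Stat3 and Jak1. The Stat3 and Jak1 calls over PBS were each lost in 7 of 9 leave-one-pair-out fits, and the other 3 calls in 0 of 9. Il6 itself differed from controls by 0.30 at 1 h and 0.26 at 2 h and was not called, and Cebpb differed by 0.72 at 2 h, also not called. The order in time is a description of 2 arrays per time and does not show what drove the members.

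**Figure D5:**
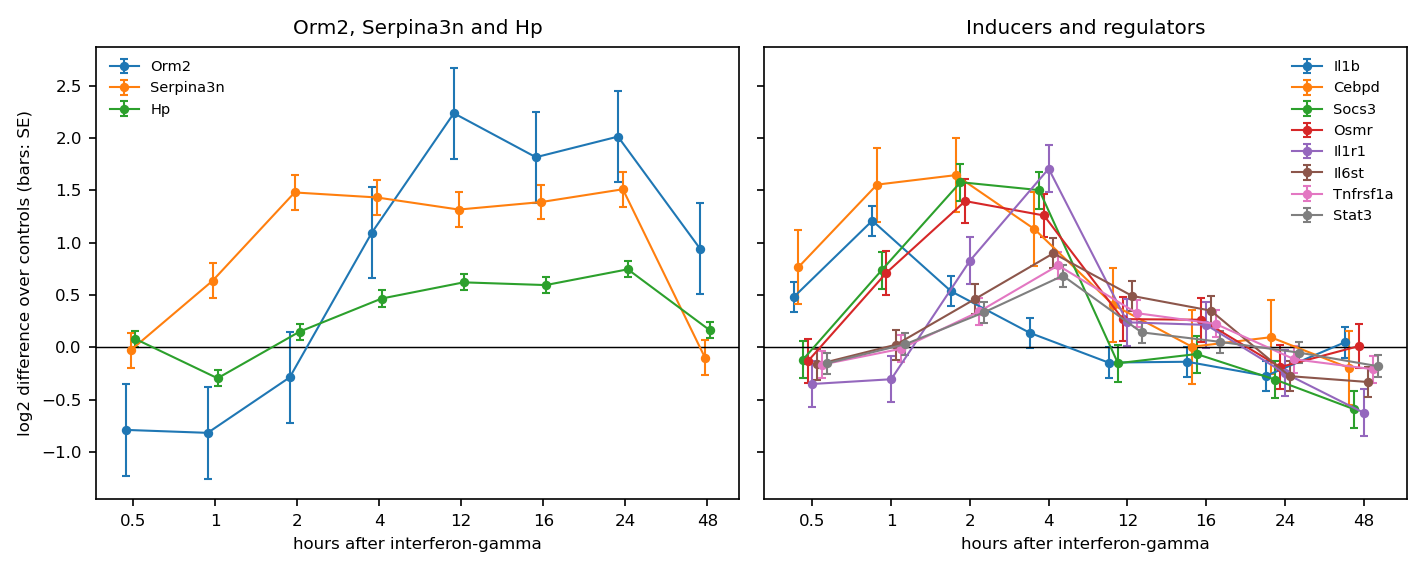
Log2 difference from the 6 control arrays (vertical axis), as the mean of both genotypes with bars of 1 SE, at the 8 interferon times (horizontal axes, equally spaced), for the 3 members on the left and 8 genes of acute phase signalling on the right. Il1b is called at 1 h, Cebpd, Socs3 and Osmr at 2 h, and Il1r1, Il6st, Tnfrsf1a and Stat3 at 4 h.

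Markers of other liver and blood cells were read beside the members, since Lcn2, their common neighbour, is also a neutrophil gene. The summed linear level of 15 measured neutrophil markers other than Lcn2 was 870 to 916 at 12 to 48 h, against 826 to 936 in controls, in SOCS1-/-IFNg-/- livers. In IFNg-/- livers it was 794 to 866 at 12 to 48 h, against 825 to 879 in controls. These ranges overlapped within each genotype. A linear sum is weighted to its brightest probe set, here Csf3r, at a log2 level of 8.27 to 8.52. Dimmer markers such as S100a8 (3.85 to 5.69 over the arrays) and S100a9 (3.95 to 5.35) could change with little effect on it. The overlap therefore says little about neutrophils. The sum of 13 macrophage and Kupffer cell markers was 1481 to 2077 at 12 to 48 h, against 1761 to 1934 in controls, in SOCS1-/-IFNg-/- livers, and 1634 to 2016 against 1541 to 1753 in IFNg-/- livers. The lowest log2 value on any array was 1.73, so a marker level above 0 does not show that such cells were present. The part of these cells in the members' levels was not tested.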

How the data were processed

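Total RNA from mouse liver was hybridised as biotin-labelled cRNA to Affymetrix arrays, per the labels' protocols. The deposited log2 values are 1 per probe set, which the authors had normalized; affy is the tool that the submitters' processing notes list, and the method is not given in the sources used here. Of 12488 probe sets, 66 control probe sets were left out, and 10833 had 1 gene symbol in the platform table, 396 several and 1193 none. The brightest probe set stood for each of 8251 genes. Array number limits precision.

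Limma 3.58.1 in R 4.3.3 was used, with Benjamini-Hochberg adjustment over all genes and a threshold of 0.05. Differences from the 6 controls (untreated, PBS 4 h, PBS 12 h) came from a model with condition and genotype as additive terms, on 22 arrays (10 residual degrees of freedom), so that both genotypes stood in as replicates of a time. Genotype differences were fitted on the 11 within-condition differences by phase (8 residual degrees of freedom). The pairing comes from the shared condition in the labels, which give no replicate numbers. Separate animals are not stated, so spread between animals and between arrays cannot be told apart. The residual of the first model also holds any genotype difference that varied with condition. That of the second also holds any change in the pair difference between the conditions of a phase. The p-values and errors measure these together. In simulated data limma recovered 85% of log2 changes of 0.5 at 12 h, 96% over all pairs and 45% in the late minus control genotype difference. These shares are over many genes and need not hold for a member. The SE of Orm2 was 0.44 at 12 h and 0.21 over all pairs.

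Members and lists were chosen with earlier results of these data known. Named genes are the members, their 6 closest neighbours by r, all measured family members and partners, and up to 6 called genes of a list by size; the fibrinogens, Il6 and Cebpb were named after their values were seen. Alternatives were array weights, trend and robust moderation, quantile normalization, the mean of all probe sets, genes above the median level only, no pairing, and leaving out each pair.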

Additional observations from a re-analysis of the deposited data

How the results depend on the processing

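No called value changed sign. The members' early genotype differences are not among the values followed through the alternatives. Of their other uncalled values, 6 changed sign in 1 alternative each. For Hp these were the late minus control and PBS differences, and for Orm2 the late minus control difference. For Serpina3n they were the 0.5 h, 48 h and early minus control differences. The ranges of these values cross 0. The Serpina3n genotype difference over all pairs ranged from 0.36 to 0.47 when 1 pair was left out and was called without the 48 h pair. Giving the 48 h pair a phase of its own, chosen after the data were seen, gave the same 0.47 (limma adjusted p = 0.0320). For this difference it is the same fit as leaving that pair out, so it is no further check. Leaving out both the 4 h and the 48 h pairs, also chosen after the values were seen, removes 2 of the 3 pairs in which Orm2 was lower in SOCS1-/-IFNg-/- livers. It gave 0.67 for Orm2 over all pairs (0.0433) and 1.23 at late times (0.0248), and 0.45 (0.0293) and 0.72 (0.0302) for Serpina3n. Quantile normalization moved Hp, which lies near the top of the scale, to -0.18 at 1 h, 0.33 at 4 h, 0.42 at 4 h over PBS and 0.45 at 12 h over PBS. Counts of the other acute phase genes called higher were, with all alternatives, 3 to 13 at 2 h, 5 to 18 at 4 h, 4 to 11 at 16 h, 1 to 7 over PBS at 4 h and 1 to 4 over PBS at 12 h. The lowest at 4 h came with array weights (5) and, among arrays left out, without both untreated arrays (9). Counts over all genes, 137, 415, 117, 37 and 14 at 2, 4, 12, 16 and 24 h, ranged over 86 to 420, 84 to 459, 54 to 187, 15 to 60 and 7 to 22. At 1 h the 13 calls ranged over 5 to 47, over PBS the 112 at 4 h over 23 to 108 and the 9 at 12 h over 6 to 32, and the 2 of PBS over untreated over 1 to 51. The 18 genes called between genotypes over all pairs ranged over 0 to 63, and the 69 at late times over 0 to 205, with 0 at late times and 4 over all pairs when the pairing was dropped. The genotype calls ranged over 0 to 3 in controls, 0 to 4 at early times and 0 to 2 for late minus controls. The causes were not tested. With 1 array per genotype and condition, no member's level has a replicate at its own time.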

Other observations

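Of 15 measured negative acute phase genes, which include Alb and Ttr, the carriers albumin and transthyretin, none was called by limma at any time. At 12 h 2 of them had an unadjusted limma p under 0.05, as had 1097 of all 8251 genes. The 12 h differences were -0.04 ± 0.06 for Alb and -0.08 ± 0.16 for Ttr, next to a 12 h difference of 0.62 for Hp. As 0.109% of all genes were called lower at 12 h, the absence of calls among 15 genes says nothing particular to them.

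Among 16 measured glucocorticoid targets, 3 were called higher at 2 h, Mt1, Mt2 and Zbtb16, a transcription factor that rose by 2.02. At 4 h Mt1, Mt2 and Fkbp5, a chaperone of the glucocorticoid receptor, were higher, Fkbp5 by 0.97. Over all genes 1.24% and 3.14% were called higher at 2 and 4 h. Tat, a tyrosine-degrading enzyme, fell by 1.04 at 4 h, and G6pc, the glucose-releasing phosphatase, fell by 2.24. In either direction, 415 of 8251 genes were called at 4 h. Against time-matched PBS at 4 h only Mt2 of the 16 was called, and that call was lost in 6 of 9 leave-one-pair-out fits. Over PBS, Tat differed by -0.69, G6pc by -1.90, Fkbp5 by 0.75 and Mt1 by 2.79, none of them called. None of the 16 was called from 12 h on, where 6, 2, 1 and 1 had an unadjusted limma p under 0.05 at 12, 16, 24 and 48 h. Such a p was reached by 1097, 697, 815 and 552 of 8251 genes. As 117, 37, 14 and 1 of 8251 genes were called at these times, the absence of calls says nothing particular to the 16. The Fkbp5 call was lost without both untreated arrays.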
